A study of Mus musculus with 4 samples.

Results

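Replication-coupled histone genes were examined in ATAC-seq peak lists from mouse bone marrow-derived macrophages (BMDMs) with and without histone H3.3. The genes were taken by name, as all genes whose GENCODE vM21 symbol starts with Hist1h, Hist2h, Hist3h or Hist4h, which gave 70 of 55450 annotated genes. Of these 70 genes, 67 code for protein and 3 are pseudogenes (Hist3h2bb-ps, Hist1h2aj and Hist1h2al). Their gene bodies with 2 kb on each side merged into 27 windows that span 265511 bp. After merging the peaks of the 4 lists, 52 of 71243 union regions overlapped these windows.

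There were 2 libraries of WT and 2 of H3.3cKO (cKO) BMDMs, numbered 1 and 2 as biological replicates in the labels. WT mice were H3f3a fl/fl H3f3b fl/fl, and cKO mice carried the same floxed alleles together with LysM cre/cre, which expresses Cre from the Lyz2 locus in macrophages and granulocytes. In these alleles exon 2 of H3f3a and exons 1 to 4 of H3f3b are floxed, all mice had a C57BL/6 background, and bone marrow came from male and female mice aged 8 to 10 weeks. WT mice had no Cre, so the effects of Cre and of H3.3 loss cannot be told apart in these 4 libraries. The cells were grown with L929-conditioned medium and used on day 7, and the study described the deletion of H3f3b in cKO cells as varying from partial to complete.

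Nucleosomes are built from histones H2A, H2B, H3 and H4, and linker histone H1 binds the DNA between them. The genes named Hist1 to Hist4 lie in clusters, are transcribed mainly in S phase to package newly copied DNA, and give mRNAs that end in a conserved stem-loop instead of a poly(A) tail. H3.3, from the separate genes H3f3a and H3f3b, is made throughout the cell cycle and replaces H3 outside replication. The study asked whether the genes for the replication-coupled proteins H3.1 and H3.2 compensate for its loss. By RNA-seq it described their mRNA on day 7 as apparently somewhat higher in cKO cells, with no statistically significant difference. On the earliest day it studied, Hist1h3c, Hist1h3g and Hist2h3c2 were significantly lower in cKO cells. The accessibility data below give the state of the gene promoters and not the amount of mRNA.

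The members comprised 6 H1, 20 H2A, 19 H2B, 12 H3 and 13 H4 genes. The Hist1 cluster holds 56 of them on chromosome 13. The Hist2 cluster on chromosome 3 holds 10 genes, the Hist3 cluster on chromosome 11 holds 3, and Hist4h4 lies alone on chromosome 6. The short promoters and the shared 3′ element of these genes are shown first, since the positions of the peaks described below are set beside them. The following promoters are the 250 bases before the RefSeq transcript start, from assembly GRCm38.p6, the assembly that mm10 represents, and they belong to genes described below. Hist3h2ba, Hist2h2ac, Hist1h4a and Hist1h4k lie in regions with large positive differences, Hist1h3d is the gene with the most negative difference at its TSS, and Hist1h1c and Hist4h4 have the highest peaks. Capitals mark exact matches on either strand to the octamer ATTTGCAT, to CCAAT, to TATAAA and to the H1 box AAACACA.
Hist3h2ba, chr11:58948661-58948910, plus strand: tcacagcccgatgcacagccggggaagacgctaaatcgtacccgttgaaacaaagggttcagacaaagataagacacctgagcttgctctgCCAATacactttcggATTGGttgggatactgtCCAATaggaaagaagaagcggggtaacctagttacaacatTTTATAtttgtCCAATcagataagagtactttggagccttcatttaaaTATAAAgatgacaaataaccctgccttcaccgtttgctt
Hist2h2ac, chr3:96220881-96221130, minus strand: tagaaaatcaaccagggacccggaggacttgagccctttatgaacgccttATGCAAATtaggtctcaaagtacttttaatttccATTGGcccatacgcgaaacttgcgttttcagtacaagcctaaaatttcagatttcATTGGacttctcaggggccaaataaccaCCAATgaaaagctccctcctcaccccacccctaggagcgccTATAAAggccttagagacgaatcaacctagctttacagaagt
Hist1h4a, chr13:23761250-23761499, minus strand: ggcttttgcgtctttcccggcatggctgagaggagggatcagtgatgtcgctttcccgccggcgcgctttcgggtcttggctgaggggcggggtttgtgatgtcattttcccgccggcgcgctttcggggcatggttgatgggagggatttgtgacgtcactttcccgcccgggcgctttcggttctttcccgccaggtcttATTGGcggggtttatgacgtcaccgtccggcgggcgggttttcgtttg
Hist1h4k, chr13:21750554-21750803, minus strand: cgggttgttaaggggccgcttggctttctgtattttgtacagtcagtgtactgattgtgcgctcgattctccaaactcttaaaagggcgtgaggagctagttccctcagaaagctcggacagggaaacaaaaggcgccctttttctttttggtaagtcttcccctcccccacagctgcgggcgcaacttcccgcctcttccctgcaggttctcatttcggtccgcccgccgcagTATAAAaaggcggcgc
Hist1h1c, chr13:23738557-23738806, plus strand: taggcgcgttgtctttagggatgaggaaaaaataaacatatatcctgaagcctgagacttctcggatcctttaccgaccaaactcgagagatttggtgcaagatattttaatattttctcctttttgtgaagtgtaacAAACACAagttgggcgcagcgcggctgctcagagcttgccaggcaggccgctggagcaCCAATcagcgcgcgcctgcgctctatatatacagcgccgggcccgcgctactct
Hist1h3d, chr13:23575513-23575762, plus strand: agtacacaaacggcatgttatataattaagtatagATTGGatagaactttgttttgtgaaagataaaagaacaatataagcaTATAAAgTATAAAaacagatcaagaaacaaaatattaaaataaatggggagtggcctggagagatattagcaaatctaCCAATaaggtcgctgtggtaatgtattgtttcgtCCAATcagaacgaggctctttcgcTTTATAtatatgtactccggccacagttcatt
Hist4h4, chr6:136804432-136804681, minus strand: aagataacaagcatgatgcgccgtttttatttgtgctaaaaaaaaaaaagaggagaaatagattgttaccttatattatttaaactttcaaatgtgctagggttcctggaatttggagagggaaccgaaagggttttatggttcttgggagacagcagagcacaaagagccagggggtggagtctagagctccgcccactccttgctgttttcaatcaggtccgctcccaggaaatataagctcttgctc
RefSeq promoters were matched for 62 of the 70 genes. The octamer ATTTGCAT, the site of the POU factor Oct-1, was found in 7 of 18 H2A and 7 of 16 H2B promoters, in none of the H1, H3 or H4 promoters, and in 1.60% of all 32851 promoters of the same length. A CCAAT box was found in all H1, H2A and H2B promoters, in 8 of 10 H3 promoters and in 3 of 12 H4 promoters, against 33.8% of all promoters. TATAAA was found in 29 of 62 promoters, against 12.4% of all promoters. The H1 box was found in 5 of 6 H1 promoters, against 6.25% of all promoters.

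The stem-loop after the stop codon is bound by Slbp, which guides the processing and export of histone mRNA. A match to the histone stem-loop consensus was found within 150 bp after the stop codon in 63 of the 67 coding genes, and in 66 of 21853 protein-coding genes in all. The 3 most frequent forms, printed as they read in the coding strand with every base in capitals, were these.
Stem-loop of 41 genes: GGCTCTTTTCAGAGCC
Stem-loop of 9 genes: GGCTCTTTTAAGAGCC
Stem-loop of 8 genes: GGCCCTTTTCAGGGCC
Where found, this element lies soon after the stop codon and serves below as a point to which a peak may extend. Some annotated genes, such as Hist1h2bc, run far past it.

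Each value below is a within-list percentile unless named otherwise: the rank of a peak's area, the peak caller's summed significance, among all peaks of the same list, in percent. The lists held 55742 and 64939 peaks for WT replicates 1 and 2, and 51955 and 60884 for cKO replicates 1 and 2. Their read depth is unknown. Among markers checked at the transcription start site (TSS), 7 of 8 macrophage genes had a peak in all 4 libraries, with Csf1r at none. Of the regions at a protein-coding TSS called in all 4 libraries, the limma test described below called 5.70% higher and 10.4% lower in cKO. Of the 7 macrophage genes it called 0 higher and 2 lower. One was Lyz2, and the other was Mertk, a receptor for the uptake of dead cells, at 89.3 and 92.8 in WT against 73.9 and 79.1 in cKO (−14.5 points, SE 2.05, adjusted p = 6.03e-05), whose part in the results below was not tested. None of the 4 B cell, 4 T cell, 3 erythroid and 4 fibroblast markers had a TSS peak in any library, and of 5 neutrophil markers S100a8 alone had one, at 76.5 and 78.3 in WT against 50.3 and 64.0 in cKO, whose part in the results below was not tested. At Lyz2, where Cre is inserted, the region chr10:117274854-117279104 stood at 99.98 and 99.98 in WT against 27.5 and 52.5 in cKO. At H3f3a a small region, chr1:180811715-180812055, had a peak in each WT list and none in the cKO lists, and the region over the H3f3a start stood at 96.0 and 97.2 in WT against 93.4 and 94.1 in cKO. At H3f3b the region chr11:116023771-116024892 stood at 94.2 and 95.5 in WT against 87.0 and 81.4 in cKO, so this part of the floxed gene still carried a peak in the cKO libraries.

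The question of the first comparison was whether any histone gene became open or closed in cKO BMDMs. No histone gene did so at the threshold of the peak lists. Of the 52 regions, 46 were called in all 4 libraries, against 62.9% of all union regions. No region was gained, meaning a peak in each cKO list and none in the WT lists, where 3.72% of all union regions were gained. No region was lost, the reverse pattern, where 7.25% of all union regions were lost. These shares are over union regions of all kinds, and the shares among promoter regions of like rank are not given here. The other 6 regions were called in only 1 library (5 regions) or in 1 library of each genotype (1 region). A peak within 200 bp of the TSS was present in all 4 libraries at 58 of the 70 genes and in no library at the other 12, against a TSS peak in all 4 libraries at 46.4% of 21938 protein-coding genes. In bulk samples such as these, a site open in fewer cells and a site less open in each cell cannot be told apart.

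The 12 genes with no TSS peak were of a few kinds. Hist1h1t, Hist1h2aa and Hist1h2ba, which encode germ line histones, had none, and the divergent pair Hist1h2aa and Hist1h2ba had no peak anywhere in its window. The pseudogene Hist1h2al also had no peak in its window. Hist1h2bq, Hist1h2ao, Hist1h2ap and Hist1h2br had no TSS peak, and all of the 50-base stretches of their gene bodies occur more than once in the genome. Hist1h4m, with 89.8% of such stretches, had no peak in its window. The H3 genes Hist2h3c1 and Hist2h3c2 had no TSS peak, with 85.8% of the stretches around each TSS repeated. How reads with more than 1 match were treated was not stated and its part in these absent peaks was not tested, so they do not show closed chromatin. Hist1h1d was without a peak at its annotated start, but its coding region lay in a region at 97.4 and 97.6 in WT against 96.4 and 96.4 in cKO.

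Other repeated copies did carry peaks. Among the 10 coding genes with at least 90% repeated stretches, 6 had a peak at the start codon in all 4 libraries. Hist2h2aa2, with 100% repeated stretches, had a small peak at 4.47 and 28.2 in WT against 7.55 and 25.7 in cKO. Its neighbour Hist2h2aa1, with 96.3%, stood at 40.7 and 60.9 in WT against 49.0 and 57.4 in cKO. Hist1h4n had a peak of only 172 and 188 bp in WT against 203 and 181 bp in cKO. In each of these genes the WT and cKO values overlapped.

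The histone genes that did carry peaks ranked high within their lists, and the classes differed. Over the 57 genes with a peak within 200 bp of the start codon in all 4 libraries, the median percentile was 87.3 and 89.7 in WT against 93.4 and 93.2 in cKO. Without 5 genes whose peaks were joined in cKO, described below, it was 88.1 and 90.3 in WT against 91.6 and 90.6 in cKO over 52 genes. The median was 97.4 and 97.6 in WT over 5 H1 genes and 90.8 and 91.6 over 15 H2A genes. It was 91.5 and 93.2 over 15 H2B genes, 88.1 and 89.96 over 12 H4 genes and 67.2 and 75.5 over 10 H3 genes. By the rank of peak area, H3 genes were thus the lowest class in both WT libraries. At 75.1 and 74.4 they were also the lowest in both cKO libraries. Peaks at H3 start codons were also narrow, with a median of 544 and 590 bp in WT, where H1 peaks reached 1630 and 1685 bp. The area is summed over the width of a peak, so this order and the widths are not independent. The classes were not compared by summit rank.

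**Figure D1:**
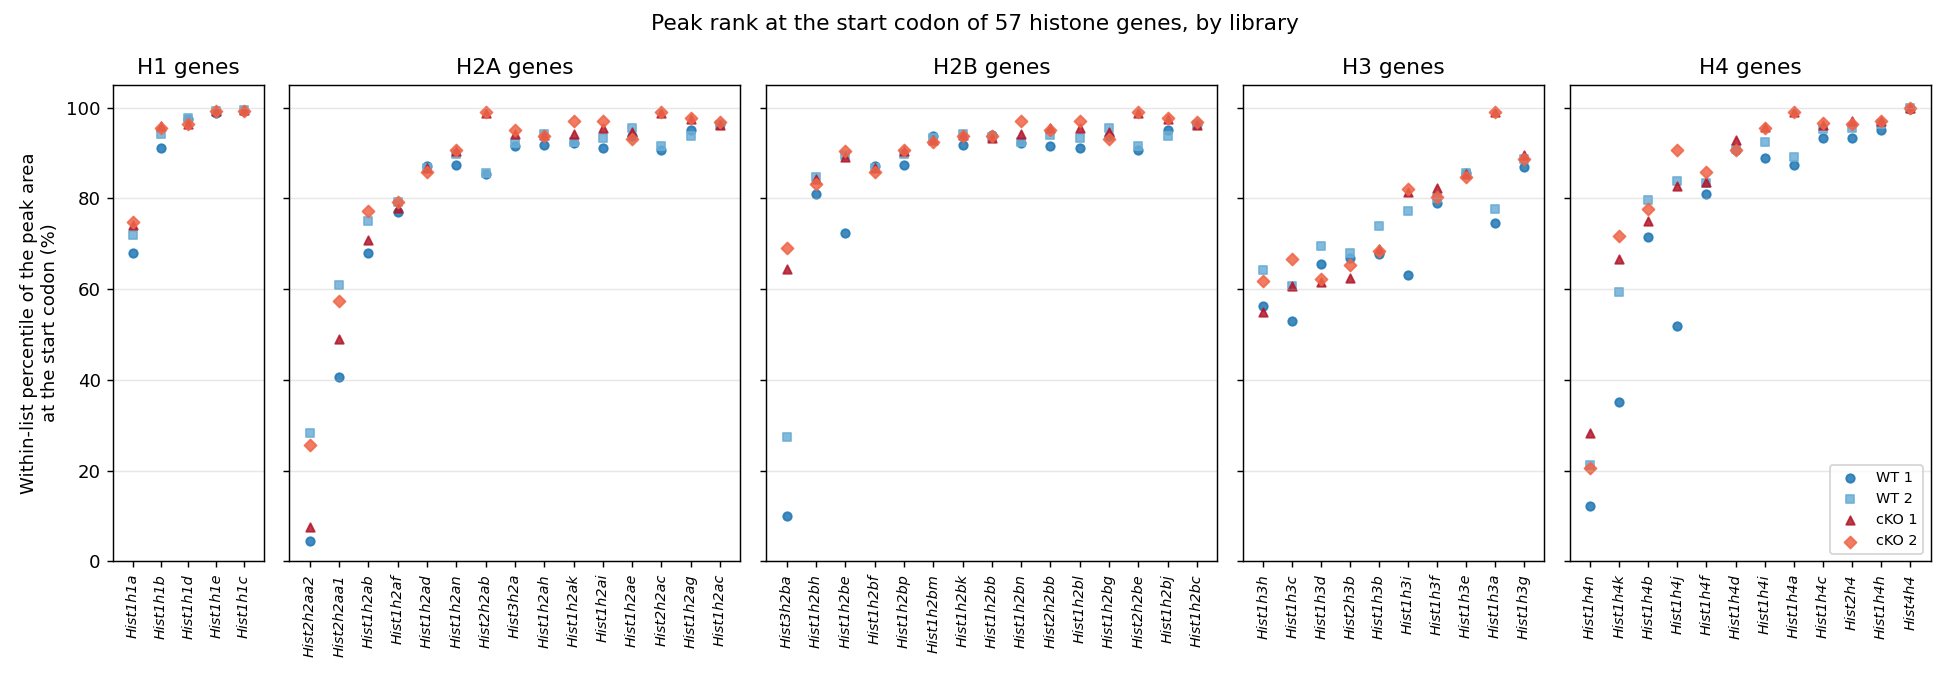
Within-list percentile of the peak area (vertical axis, %) at the start codon of the 57 histone genes with a peak there in all 4 libraries. Each gene has 1 point per library, genes are grouped by class and ordered by their mean, and most H1, H2A, H2B and H4 genes lie above 80 while H3 genes spread between 52.9 and 99.1.

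By the peak at the TSS, the highest peaks belonged to Hist4h4, Hist1h1c, Hist1h1e and Hist1h4h, and by the peak at the start codon Hist1h1d came before Hist1h4h. Hist4h4, an H4 gene outside the main clusters, stood at 99.7 and 99.9 in WT against 99.8 and 99.9 in cKO. Hist1h1c stood at 99.4 and 99.4 in WT against 99.4 and 99.3 in cKO, and Hist1h1e at 98.8 and 99.3 in WT against 99.3 and 99.3 in cKO. Both encode linker histones of somatic cells. Hist1h4h stood at 95.02 and 96.5 in WT against 97.03 and 97.02 in cKO. The annotated start of Hist1h2be lies inside the Hist1h1e region, so by its TSS it would share those values, whereas at its start codon it stood at 72.3 and 89.5 in WT against 89.1 and 90.4 in cKO.

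The highest point of the peak lay at different places in the classes. Its median position over the 4 libraries, relative to the start codon, was 149 bp upstream at H2A genes, 138 bp upstream at H2B genes and 74 bp upstream at H3 genes. At the H1 genes Hist1h1b, Hist1h1c and Hist1h1e it lay 854 to 1267 bp downstream in every library. At Hist1h1a it lay 101 to 107 bp upstream. At Hist1h1d the summit stood 84 and 43 bp upstream in the WT libraries and 1125 bp downstream in both cKO libraries, and the limma difference of the region was −1.11 points (SE 0.464, adjusted p = 0.107).

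H2A and H2B genes are often arranged head to head, so that a pair is served by a common promoter. The members held 12 such pairs, with 279 to 335 bp between the start codons. In 9 pairs a single peak covered both start codons in all 4 libraries, and in 3 pairs neither start codon lay under a peak in any library. Those 3 were Hist1h2bq with Hist1h2ao, Hist1h2ap with Hist1h2br, and the germ line pair. The genes of a pair therefore share their values and are not independent of each other.

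The second comparison asked whether the rank of the shared regions differed between genotypes. More regions at histone genes were higher than lower in cKO, while over all shared regions more were lower. Over the 46 shared regions the library medians were 87.2 and 89.2 in WT against 89.97 and 90.6 in cKO, a difference of 2.08 points with p = 0.333 in a two-sided exact permutation test, which is the smallest p that 2 against 2 libraries allow. The median of the regions' own differences was +1.87 points at histone genes and −1.10 points over all 44820 shared regions. Over the shared regions at a protein-coding TSS it was −0.39 points. In limma with Benjamini-Hochberg adjustment over all shared regions, 13 of the 46 regions were higher in cKO, against 5.68% of all shared regions. None of the 46 was lower, against 11.3%, and 1 was lower at an unadjusted p below 0.05. Among the 9183 shared regions at a protein-coding TSS, 5.70% were higher and 10.4% were lower. These calls need limma's mean-variance trend: without it limma called 0 of the 46 and 0 of all 44820 shared regions, with 3 of the 46 at an unadjusted p below 0.05. They also rest in part on WT replicate 1. Without that library fewer regions were called, at histone genes and over all shared regions, and the library medians at histone genes differed by 1.04 points.

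Without a test, both cKO libraries lay above both WT libraries at 21 of the 46 regions, against 22.2% of all shared regions, and below both at 7, against 35.1%. The summits did not show this direction region by region. When peaks were ranked by the summit −log10 p-value in place of the area, 22 of 46 differences were above 0, with a median of −0.21 points. The median by summit rank was −1.06 points over all shared regions and 0.13 points over those at a protein-coding TSS. The library medians of the summit rank at histone genes were, however, 82.7 and 84.1 in WT against 84.99 and 84.2 in cKO. By this rank 5 regions were higher in cKO, against 8.35% of all shared regions, and 0 were lower, against 14.3%. At an unadjusted p below 0.05 that limma fit had 9 of the 46 regions, 2 of them lower.

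Peaks at histone genes were wider in cKO more often than elsewhere. The median of the regions' differences in log2 width was +0.10 at histone genes, a factor of 1.07, and −0.06 over all shared regions, a factor of 0.961. Over the shared regions at a protein-coding TSS it was −0.035, a factor of 0.976. The median summed width of a shared histone region was 1049 and 1144.5 bp in WT against 1248.5 and 1222.5 bp in cKO. Both cKO libraries were wider than both WT libraries at 21 of the 46 regions, against 16.3% of all shared regions and 14.2% of those at a protein-coding TSS. They were narrower at 3 regions, against 36.9% and 31.6%. The limma test of log2 width, with 2 libraries a group, called 1 region wider, against 0.506% of all shared regions, and 0 narrower, against 1.42%, with 12 of the 46 at an unadjusted p below 0.05, 1 of them narrower. The single call was lost when any 1 library was left out. Peaks covered 49177 and 54334 bp of the histone windows in WT against 58606 and 59984 bp in cKO, a difference of 7540 bp with p = 0.333 by the exact permutation test. The number of peaks there was 54 and 53 in WT against 54 and 49 in cKO, and these groups overlapped.

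**Figure D2:**
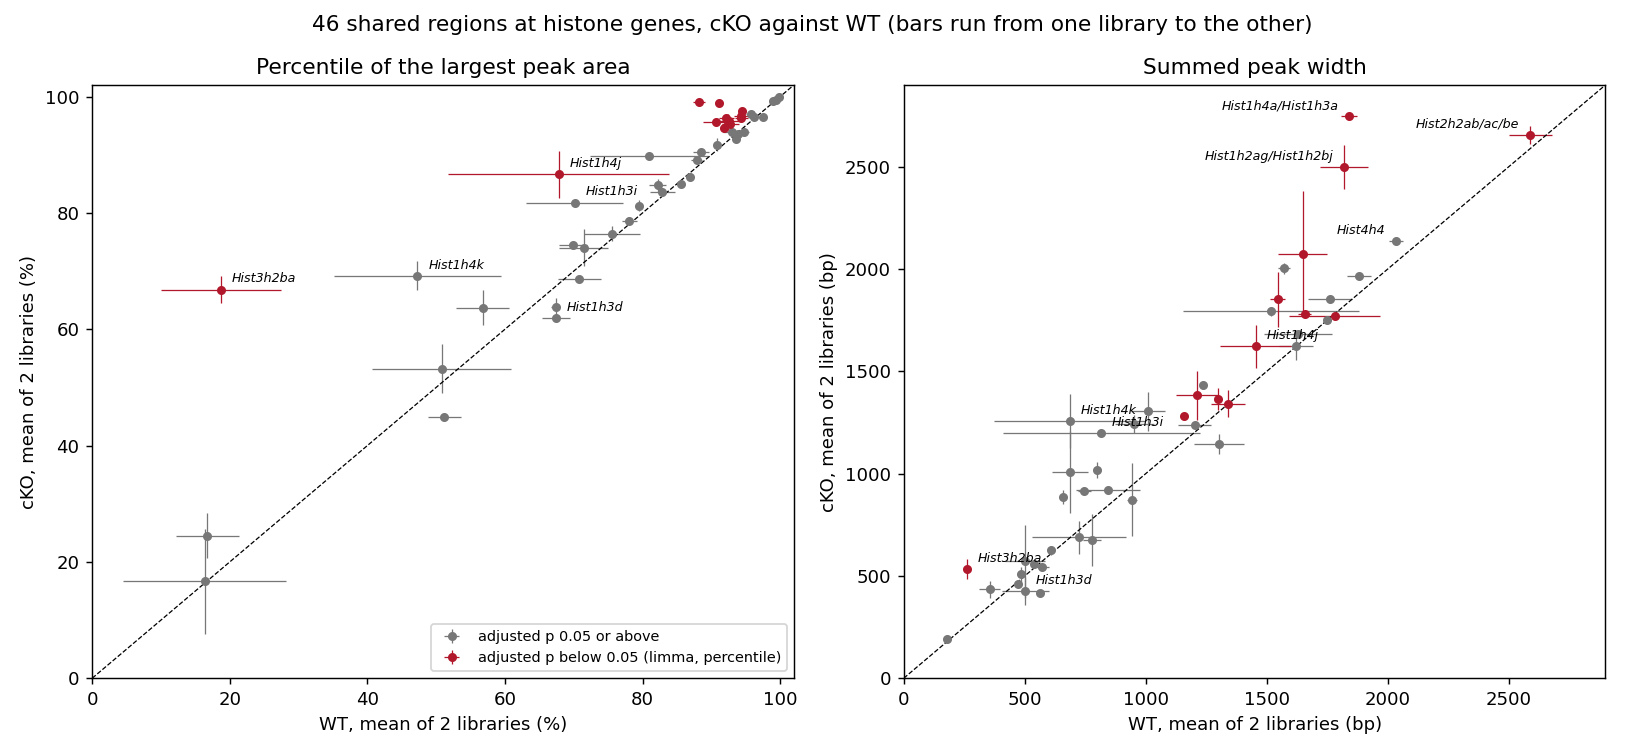
Mean of the 2 cKO libraries (vertical axis) against the mean of the 2 WT libraries (horizontal axis) for the 46 shared regions, as the percentile of the largest peak area (left, %) and as the summed peak width (right, bp); bars run from one library to the other and the dashed line marks equal values. The 13 regions with adjusted p below 0.05 in the limma test of the percentile are in red, all above the line on the left, and Hist3h2ba lies farthest from it.

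The gene bodies themselves were covered over 28735 and 30619 bp in WT against 31283 and 32908 bp in cKO, a difference of 2418.5 bp, so most of the added cover lay in the 2 kb on either side of them. At the start codon 83.6% and 85.1% of the 67 coding genes were under a peak in WT against 83.6% and 85.1% in cKO. At 800 bp past the start codon the shares were 23.9% and 31.3% in WT against 41.8% and 44.8% in cKO, and this distance lies beyond the stem-loop in all 63 genes with one. At 1000 bp before it they were 20.9% and 25.4% in WT against 29.9% and 31.3% in cKO, where many positions belong to a neighbouring histone gene. Among the 58 histone genes with a TSS peak in all 4 libraries, 25.9% and 32.8% were covered 800 bp past the TSS in WT against 46.6% and 46.6% in cKO. Among 10182 protein-coding genes with such a peak the shares were 24.4% and 28.8% in WT against 22.7% and 26.3% in cKO. The stem-loop lay under a peak at 30 and 33 of 63 genes in WT against 37 and 38 in cKO (difference of 6 genes, p = 0.333, exact permutation test). It was covered in each cKO list and in no WT list at Hist2h2ac alone, and at no gene in the reverse pattern.

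**Figure D3:**
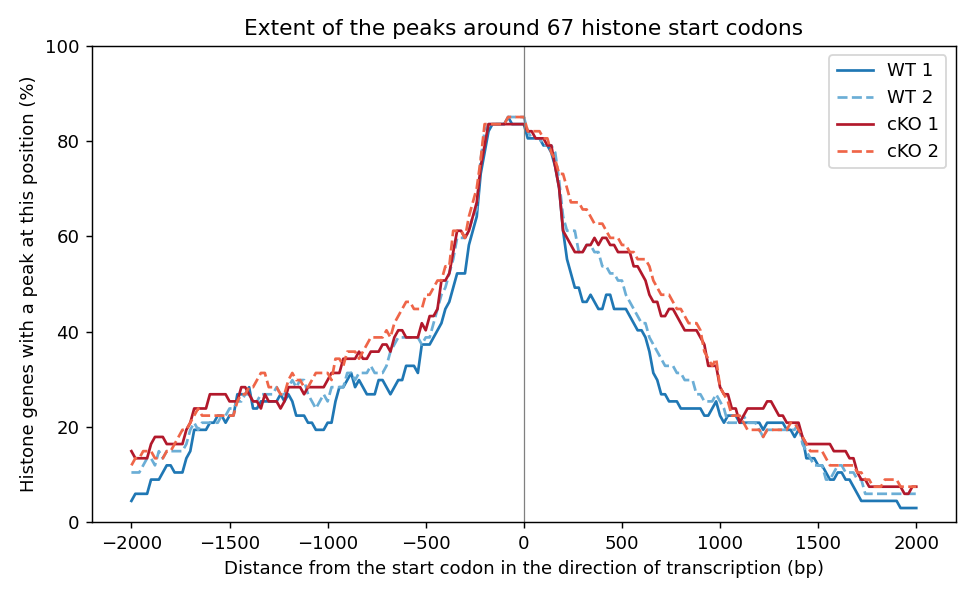
Share of the 67 coding histone genes (vertical axis, %) with a peak at each distance from the start codon in the direction of transcription (horizontal axis, bp), with 1 line per library. The 4 lines coincide at the start codon, at 83.6% to 85.1%, and the cKO lines lie above the WT lines at 800 bp.

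The largest difference was at Hist3h2ba, an H2B gene of the Hist3 cluster. Its region, chr11:58948515-58949100, stood at 10.0 and 27.5 in WT against 64.5 and 69.1 in cKO, and its width was 253 and 269 bp in WT against 485 and 585 bp in cKO. Both measures separated the genotypes, and the summit rank did so too, with 13.5 and 25.5 in WT against 64.1 and 71.0 in cKO. The limma difference was 48.1 points (SE 8.24, adjusted p = 3.98e-04), and the log2 width difference of 1.03 had an adjusted p of 0.0590. As shown above, its promoter holds CCAAT boxes and TATAAA matches and no octamer. The neighbouring region over Hist3h2a rose from 91.6 and 92.2 to 94.2 and 95.1, by 2.78 points (SE 0.712, adjusted p = 0.00987).

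At 2 regions neighbouring peaks of the WT lists were a single peak in the cKO lists. The region over Hist1h4a and Hist1h3a, chr13:23760128-23762894, held 2 peaks in each WT library and 1 in each cKO library. Its largest peak stood at 87.3 and 89.0 in WT against 99.1 and 99.1 in cKO, a difference of 10.9 points (SE 0.714, adjusted p = 3.53e-09). Its summed width was 1809 and 1874 bp in WT against 2747 and 2745 bp in cKO, which was the region called wider by limma (log2 difference 0.58, adjusted p = 0.0487). Ranked by the summed area of all its peaks, the difference was 3.28 points (SE 0.331, adjusted p = 0.00151). Its summit rank was 70.7 and 72.1 in WT against 75.1 and 77.4 in cKO, which did not overlap (4.87 points, adjusted p = 0.453 in limma).

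The region over Hist2h2ab and the pair Hist2h2ac and Hist2h2be, chr3:96219155-96222040, showed the same change of peak number. Its largest peak stood at 90.8 and 91.6 in WT against 98.9 and 99.1 in cKO, a difference of 7.80 points (SE 0.584, adjusted p = 1.90e-08). The summed width, however, was 2500 and 2678 bp in WT against 2698 and 2611 bp in cKO, which overlapped. Ranked by summed area, the difference was 0.66 points (SE 0.313, adjusted p = 0.140). Its summit rank was 84.1 and 86.6 in WT against 89.7 and 90.6 in cKO, which did not overlap (4.77 points, adjusted p = 0.0168 in limma). By summed area in general, limma called 20 of the 46 regions higher, against 19.5% of all shared regions, and 0 lower, against 19.6%. By log2 area it called 27 higher, against 25.5%, and 0 lower, against 15.5%. Without the 2 regions of joined peaks, 11 of 44 regions were higher by the percentile of the largest peak. Among these 11, the number of peaks still differed between libraries at Hist1h4j, at Hist1h2ak with Hist1h2bn, and at Hist1h2ag with Hist1h2bj. Ranked by summed area, the differences of these regions were 15.2, 3.22 and 3.32 points (limma adjusted p = 0.00925, 0.00298 and 0.00229). No region had more peaks in both cKO libraries than in both WT libraries.

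The other regions that rose carried H2A and H2B pairs, H4 genes and an H1 gene. The region of Hist1h2ag and Hist1h2bj rose from 94.96 and 93.9 to 97.6 and 97.6 (3.19 points, SE 0.542, adjusted p = 3.66e-04), with widths of 1720 and 1919 bp in WT against 2605 and 2391 bp in cKO. The region of Hist1h2bl and Hist1h2ai, which also holds a separate smaller peak at Hist1h3h, rose by 4.14 points (SE 0.736, adjusted p = 5.68e-04), and that of Hist1h2ak and Hist1h2bn by 3.26 points (SE 0.763, adjusted p = 0.00533). Hist1h4i rose from 88.9 and 92.5 to 95.8 and 95.5, by 4.98 points (SE 0.899, adjusted p = 6.49e-04). Hist1h4c, Hist2h4 and the region over the start of Hist2h2bb, which reaches into the Hist2h3b gene, rose by 2.02 to 2.46 points, with adjusted p from 0.0159 to 0.0311. Hist1h1b, a linker histone gene, rose from 91.0 and 94.2 to 95.9 and 95.6 (3.17 points, SE 0.800, adjusted p = 0.00886). In all of these regions both cKO libraries lay above both WT libraries.

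Hist1h4j and Hist1h4k, neighbouring H4 genes, had larger but less even differences. Hist1h4j stood at 51.8 and 83.9 in WT against 82.6 and 90.6 in cKO. In both genotypes its region held 2 peaks in replicate 1 and 1 peak in replicate 2. Its groups overlapped, although limma, which borrows the spread from other regions of like rank, gave 18.8 points (SE 5.97, adjusted p = 0.0342). By summit rank the limma difference of Hist1h4j was 3.86 points (SE 8.06, adjusted p = 0.782). Hist1h4k stood at 35.1 and 59.4 in WT against 66.7 and 71.7 in cKO, with widths of 375 and 997 bp in WT against 1124 and 1389 bp in cKO. Its groups did not overlap, and its difference of 21.9 points (SE 7.71) did not pass the test, with an adjusted p of 0.0548.

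Limma called 5.68% of all shared regions higher in cKO. By class, a region over genes of several classes counts in each. Of regions over an H4 gene 5 of 12 were called higher, and 7 of 21 over an H2A or H2B gene. The counts were 1 of 5 over an H1 gene and 3 of 11 over an H3 gene. Each of those 3 also covered a gene of another class, and of the 8 regions over H3 genes alone 0 passed the test and 1 had an unadjusted p below 0.05. The differences of those 8 ranged from −5.44 to 11.6 points, with a median of 0.34. The difference between the classes was not tested.

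The H3 genes are given one by one, since they are the genes the study asked about. Of those encoding H3.1, Hist1h3g stood at 87.0 and 88.7 in WT against 89.6 and 88.6 in cKO, and Hist1h3h at 56.4 and 64.2 in WT against 55.0 and 61.7 in cKO. Both genes had overlapping groups. Hist1h3i stood at 63.0 and 77.2 in WT against 81.4 and 82.1 in cKO, which did not overlap, with a limma difference of 11.6 points (SE 4.04) and an adjusted p of 0.0515. Hist1h3a stood at 74.5 and 77.7 in WT by its own peak and at 99.1 and 99.1 in cKO, where its peak was joined with that of Hist1h4a.

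Of the genes for H3.2, Hist1h3e was nearly level, at 85.6 and 85.5 in WT against 85.4 and 84.6 in cKO. Hist1h3f stood at 78.9 and 79.98 in WT against 82.2 and 80.3 in cKO, and Hist1h3c at 52.9 and 60.6 in WT against 60.7 and 66.7 in cKO. In both genes the lower cKO value lay just above the higher WT value, closer than the libraries of a group lay to each other. Hist1h3b stood at 67.7 and 73.9 in WT against 68.8 and 68.4 in cKO. Hist1h3d stood at 65.4 and 69.4 in WT against 61.7 and 62.3 in cKO, and Hist2h3b at 66.7 and 68.0 in WT against 62.4 and 65.4 in cKO. Hist1h3d, Hist2h3b and, by a small margin, Hist1h3e had both cKO values below both WT values. The limma differences were −5.44 points at Hist1h3d (SE 5.84, adjusted p = 0.583) and −3.49 points at Hist2h3b (SE 5.66, adjusted p = 0.736). At Hist1h3e the difference was −0.57 points (SE 1.57, adjusted p = 0.853). None of them passed the test, whose SE borrows the spread of other regions of like rank and was larger in size than each difference. In the order of mean percentile, Hist1h3g and Hist1h3a came first and Hist1h3c and Hist1h3h last.

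The 5 most negative differences by the TSS percentile were at Hist1h3d, Hist2h3b, Hist1h3b, Hist1h3h and the pseudogene Hist1h2aj. The regions of Hist1h3d, Hist2h3b, Hist1h3b and Hist1h2aj did not pass the limma test. The peak at Hist1h3h was not tested alone, since its region also holds the larger peak of Hist1h2bl and Hist1h2ai and was among those higher in cKO. Hist1h2aj shares its region with Hist1h2bm, at 93.8 and 93.3 in WT against 92.8 and 92.5 in cKO, a difference of −0.90 points (SE 0.714, adjusted p = 0.436). The 5 most positive differences were at Hist3h2ba, Hist1h3a, Hist1h4k, Hist1h4j and Hist2h2ab.

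The gene blocks of the clusters moved unevenly. In the Hist2 cluster the median percentile at the start codons of 8 genes was 88.0 and 88.6 in WT against 96.2 and 95.7 in cKO. Of these 8, Hist2h2ab, Hist2h2ac and Hist2h2be share the joined peak, and over the other 5 genes the median was 66.7 and 68.0 in WT against 62.4 and 65.4 in cKO. In every library that median is the value of Hist2h3b, whose difference did not pass the limma test. The regions of Hist2h4 and Hist2h2bb were called higher, and at Hist2h2aa1 and Hist2h2aa2 the genotypes overlapped. In the chromosome 13 block from Hist1h2bl to Hist1h2br it was 87.3 and 89.7 over 13 genes in WT against 90.3 and 90.6 in cKO. In the block from Hist1h4h to Hist1h1a it was 87.0 and 87.7 over 28 genes in WT against 89.3 and 89.5 in cKO, and over 26 genes without Hist1h4a and Hist1h3a it was 87.0 and 87.7 in WT against 87.8 and 87.2 in cKO. In the block from Hist1h2ah to Hist1h2bj it was 91.7 and 93.9 over 5 genes in WT against 95.8 and 95.5 in cKO. Within each of these 4 blocks both cKO medians lay above both WT medians. Without the joined peaks the medians overlapped in the block from Hist1h4h to Hist1h1a. In the Hist2 cluster the cKO medians, those of Hist2h3b, then lay below both WT medians. The difference between blocks was not tested.

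Genes that supply histones were looked at by their TSS regions, each list in full. Of 24 genes for histone transcription, mRNA processing and chaperones, 22 had a TSS peak in all 4 libraries. Limma called 1 higher and 0 lower in cKO, against 5.70% and 10.4% of shared regions at a protein-coding TSS. At an unadjusted p below 0.05, 3 were higher and 2 lower. The gene called higher was Ccne2, a cyclin that activates Cdk2 at the entry into S phase, at 90.3 and 93.5 in WT against 93.4 and 96.5 in cKO, which overlapped (3.07 points, SE 0.974, adjusted p = 0.0339). Npat, the activator of histone gene transcription, stood at 97.9 and 98.1 in WT against 97.1 and 97.2 in cKO (−0.84 points, SE 0.436, adjusted p = 0.200). Slbp stood at 94.8 and 94.4 in WT against 93.0 and 94.0 in cKO (−1.06 points, SE 0.656, adjusted p = 0.301). Lsm10 and Lsm11, subunits of the U7 particle that cleaves histone pre-mRNA, had differences of 3.40 (SE 1.56, adjusted p = 0.144) and 3.54 points (SE 1.34, adjusted p = 0.0747), both with the cKO libraries above the WT libraries. The peak of Lsm10 passed the width test (log2 difference 1.37, adjusted p = 0.0487). The median difference of the 22 genes was −0.37 points.

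Of 11 histone genes outside the clusters, 8 were tested. In cKO 1 was higher and 2 were lower, against 5.70% and 10.4% of shared regions at a protein-coding TSS. H2afx, which encodes the H2A variant phosphorylated at DNA breaks, stood at 88.9 and 91.3 in WT against 92.3 and 93.5 in cKO (2.85 points, SE 0.937, adjusted p = 0.0405). Cenpa, the H3 variant of centromeres, fell from 92.0 and 92.4 to 87.1 and 85.9 (−5.71 points, SE 1.07, adjusted p = 8.94e-04), and the other was H3f3a itself. H3f3b, tested at its annotated TSS, did not pass (6.56 points, SE 9.02, adjusted p = 0.681). Its region chr11:116023771-116024892, described above, differed by −10.7 points in limma (SE 1.36, adjusted p = 1.94e-05). Of 16 proliferation genes 15 were tested, with 3 higher and 1 lower, against the same 5.70% and 10.4%. Tk1 was not tested, since cKO replicate 1 had no peak at its TSS. It stood at 27.7 and 41.8 in WT and at 11.9 in cKO replicate 2. Mcm7, a subunit of the replicative helicase, rose from 84.4 and 87.2 to 96.3 and 97.6 (11.1 points, SE 0.947, adjusted p = 1.25e-07), and Mcm5 and Mcm6 rose by 4.19 and 3.84 points. Mki67, a marker of cycling cells, fell by 2.06 points (SE 0.492, adjusted p = 0.00621). The part of any difference in cell cycle state in the values at histone genes was not tested.

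**Figure D4:**
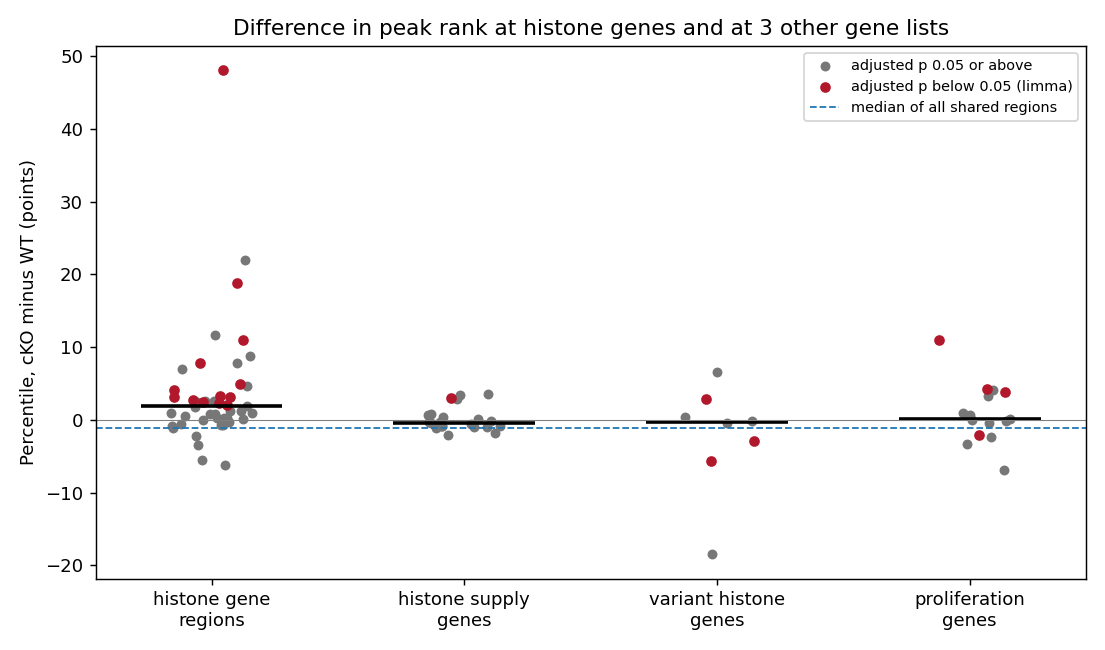
Difference in within-list percentile between cKO and WT (vertical axis, points) for the 46 shared regions at histone genes and for the TSS regions of 3 gene lists; each point is a region, red where the adjusted p in limma is below 0.05, and black bars are medians. The histone gene regions have the highest median, at 1.87 points, against −0.37, −0.29 and 0.08 points in the other lists and −1.10 points over all shared regions (dashed line).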

How the data were processed

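ATAC-seq was done by the authors on 2 WT and 2 cKO BMDM libraries, grouped here by the sample titles. Per the submitters' processing notes and the study's methods, paired reads were aligned to mm10 with Bowtie2 2.5.1 and peaks were called with Genrich at default settings, separately for each library. The deposited lists gave a peak area (a score), a summit −log10 p-value and a summit position per peak, and the second score column was not used. Read filters, duplicate removal and read shifting are not given in the sources used here. Read counts were not analysed here, so depth and counting error are unknown, and areas were compared only as ranks within a list.

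Union regions were made by joining all peaks that share 1 bp or more, with Python 3.11.15 (pandas 2.3.3). A region's value is its largest peak area as a percentile of that list, and its width is the summed width of its peaks. Regions called in all 4 libraries were compared with limma 3.58.1 (R 4.3.3, eBayes with trend), adjusted over 44820 regions at 0.05. Single values used exact permutation tests over 6 assignments. The limma step was tested on simulated data, and the limit for passing was lowered after the result was seen. The simulated spread followed the mean of the regions, so this test cannot check the mean-variance trend. All p-values rest on the biological replicates named in the labels, 2 per group. Those of limma do not measure the spread of these replicates alone. Through the mean-variance trend they also borrow the spread of other regions of like value. Blocks of genes were split at gaps above 100 kb. Repeated stretches were 50-base sequences counted on both strands of the 21 main chromosomes of GRCm38.p6. Coordinates are 1-based, on mm10.

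The members and gene lists were chosen with earlier results of these data known. The text names all H3 genes, the genes gained or lost, the 5 largest rises and falls and the 5 highest and lowest at the TSS, genes with no peak in the window and the germ line genes. Regions past the limma test, the joined peaks and genes of the other lists were named after their values were seen. Alternatives were stricter or equal-length lists, other windows and overlaps, other ranks, no trend, a replicate block and each library left out.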

Additional observations from a re-analysis of the deposited data

How the results depend on the processing

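There were 2 libraries a group and depth is unknown: a peak just below the caller's threshold is missing from a list, and ranks near 100 are compressed. For the count of regions passing the percentile test (13), ranking by summit −log10 p-value gave 5, log2 area 27, summed area 20, and no trend 0, and over all 44820 shared regions these gave 10132, 18367, 17536 and 0. Leaving out 1 library gave 7 to 17, the lowest without WT replicate 1. With a replicate block it was 15 (14 higher, 1 lower). The block added Hist1h4k (adjusted p = 0.0246), Hist1h3i (0.0423) and Hist1h1d (lower, 0.0451), and the Hist2h2bb region no longer passed (0.0512). Over all shared regions it gave 16055 calls against 7625 without the block. Same-numbered libraries shared part of their deviations (r = 0.295 over 44820 regions), and the 2 pairs share only a number. The region past the width test (1) was lost with the replicate block (0) and without any 1 library (0 to 0, with 0 over all regions). For regions called in 1 genotype only (0), the stricter list and the 50% cover rule each gave 1, Hist3h2ba. A window of 5 kb gave 2, both lost, and leaving out 1 library gave 0 to 3, the highest without cKO replicate 2 and 1 without WT replicate 1 or cKO replicate 1. TSS peaks of 1 genotype only (0) became 1, Hist3h2ba, with the stricter list. The difference in peak number (−2) ranged from −4.5 to 0.5 when 1 library was left out and turned positive without cKO replicate 2. With 1 library left out, the difference in library medians ranged from 1.04 to 3.04 points and that in covered length from 4961 to 10118 bp. The causes of these changes were not tested. The alternatives added after seeing the data were a peak at the start codon (0 genes of 1 genotype only), genes with under 50% repeated stretches (10 of 28 regions higher) and the regions without joined peaks (11 of 44 higher, library medians 1.85 points apart).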
